A study of Drosophila melanogaster with 10 samples.

Results

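The subunits of the 5 complexes of oxidative phosphorylation were examined in mushroom body neurons of *Drosophila melanogaster* at the start of metamorphosis. Members were taken by symbol from the annotation of the array: genes of the ND-, UQCR, COX, ATPsyn and Sdh families, together with RFeSP, Cyt-c1, ox, levy, cype and blw. This gave 72 genes of the 10844 that have a probe set with a single symbol, with 31 in complex I, 6 in complex II, 7 in complex III, 13 in complex IV and 15 in complex V. They were read by 75 probe sets, and a gene with more than 1 was represented by the brightest. The paralogues among them, whose symbol ends in L, L1 or L2 after the name of a subunit, numbered 17. Cyt-c-p, ND-23, ND-30, ND-49, SdhA and other subunits without a matching probe set were not analysed here.

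All animals were yw/w and carried UAS-mCD8::GFP over UAS-EcRB1[W650A] together with OK107-GAL4/+. OK107-GAL4, a driver active in mushroom body neurons and in some other brain cells, expressed a membrane-bound green fluorescent protein and the dominant negative ecdysone receptor EcRDN, which blocks the steroid signal that normally triggers the pruning of larval axons. There were 3 arrays from pupae at 5 h after puparium formation and 6 from pupae at 0 h. For each replicate, 40 laser captures of about 100 labelled cell bodies were pooled, and the RNA was amplified in 2 rounds. Both ages carried the transgenes and y,w arrays were not analysed here, so the values compare captures of the ages and do not show the action of the receptor. Replicates are biological by their labels, with the number of animals per pool not stated.

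Oxidative phosphorylation takes place in the inner membrane of mitochondria. Complex I oxidises NADH and complex II oxidises succinate, both pass electrons to ubiquinone, complex III hands them on to cytochrome c, and complex IV delivers them to oxygen. Complexes I, III and IV pump protons, and complex V, the ATP synthase, uses the return of the protons to make ATP. Each complex except complex II combines a minority of subunits encoded by mitochondrial DNA with a larger number encoded in the nucleus. The members described here are nuclear genes. Neurons rely on the pathway for much of their ATP.

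At 0 h, replicates 1 to 3 stood apart from replicates 4 to 6, a division that the labels do not explain. The 95th percentile of all log2 values was 7.88 to 8.03 at 5 h, 7.86 to 8.05 in 0 h replicates 1 to 3 and 7.35 to 7.73 in 0 h replicates 4 to 6. The 3' bias of the RNA, read as the 3' minus the 5' actin control on the log2 scale, was 8.47 to 8.63 at 5 h and 7.45 to 8.10 over all 0 h arrays, without overlap. All 9 of the measured neuron and mushroom body markers lay above the background value of 3.73, the highest reading of 8 controls that match no fly sequence. In the difference between the ages, 7 of the 9 lay above 0 and 2 below, with a median of 0.28. The 2 below were ey and prt, at -0.10 and -0.16. Of the 9, only elav and toy passed the test, higher at 5 h by 0.86 and 1.06 on the log2 scale (limma adjusted p = 0.033 and 0.038). These calls ended when the array with conflicting labels was counted as 0 h (adjusted p = 0.064 and 0.078) or as 5 h (0.18 and 0.054), and without any 1 of the 5 h arrays. That of elav also ended without 0 h replicate 3 or 6 (0.057 and 0.058), and that of toy after quantile normalization (0.18) and without 0 h replicate 2 or 3 (0.050 and 0.066). The summed linear level of 9 neuron markers was 3296 to 3684 at 5 h and 2482 to 3657 at 0 h. Bright genes weigh most in it. The brightest of the 9 was rut, with a mean over the 9 arrays of 10.37, while that of elav was 4.48. The ages differed by 0.24 in rut (adjusted p = 0.48). For 7 glial markers the summed linear level was 409 to 520 at 5 h and 227 to 373 at 0 h, without overlap. The sum is carried by alrm, repo and nrv2, which differed by 1.59, 0.83 and 1.28. The other 4 (Gs2, loco, moody and gcm, the last below background) lay below 0, and the median of the 7 differences was -0.11. Of the 7, only nrv2 passed the test (adjusted p = 0.018), and not with the conflicting array as 0 h (0.16) or without any 1 of the 5 h arrays (0.069 to 0.12). The part of the glial markers in the differences of the subunits was not tested.

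The subunit genes were read well above background. Of the 72 members, 65 had a mean over the 9 arrays above the background value. Among the 55 genes that are not paralogues, 53 were above it, the exceptions being ND-B8 of complex I and COX7C of complex IV. Of the 17 paralogues, 12 were above it, and SdhAL, SdhCL, COX4L, COX6AL2 and COX7AL were below. Readings of different probe sets are not on one scale, since each depends on how well its probes bind, so levels are set side by side as a description.

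Without paralogues, the mean of the array medians for complex I was 7.29 ± 0.14 (log2, SD) at 5 h and 7.39 ± 0.35 at 0 h, over 26 genes. Complex II, with 3 genes, read 7.33 ± 0.15 at 5 h and 7.23 ± 0.39 at 0 h. For the 6 genes of complex III the level was 7.49 ± 0.08 at 5 h and 7.98 ± 0.42 at 0 h. The readings of complexes IV and V lay above those of the other complexes at both ages. Complex IV, with 9 genes, read 8.58 ± 0.07 at 5 h and 8.46 ± 0.30 at 0 h. Complex V, with 11 genes, read 8.15 ± 0.07 at 5 h and 8.50 ± 0.12 at 0 h. In complexes I and IV these levels moved against most of the genes. Of the 9 genes of complex IV, 8 were lower at 5 h, with a median difference of -0.22. Of the 26 genes of complex I, 17 were higher, with a median difference of 0.07. The median difference of complex V was only -0.03. The levels are therefore not a measure of change with age. With the paralogues counted, the level of complex II was 5.80 ± 0.08 at 5 h and 5.75 ± 0.25 at 0 h, since 3 of its 6 genes are dim paralogues.

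The brightest members came from 4 of the complexes. In complex III, UQCR-Q, a small supernumerary subunit, read 9.73 ± 0.14 at 5 h (log2, SD, n = 3) and 9.71 ± 0.19 at 0 h (n = 6). In complex V, ATPsynC, the subunit that forms the rotating ring in the membrane, read 9.78 ± 0.07 and 9.49 ± 0.37 at 5 h and 0 h, ATPsynD, part of the peripheral stalk, 9.53 ± 0.04 and 9.56 ± 0.27, and ATPsynE 9.31 ± 0.01 and 9.18 ± 0.13. Complex IV was led by COX7B, COX5B and cype. COX5B read 9.01 ± 0.12 at 5 h and 9.12 ± 0.25 at 0 h, and cype, the fly counterpart of mammalian COX6C, read 8.92 ± 0.11 at 5 h and 9.12 ± 0.29 at 0 h. In complex I the brightest were ND-B16.6, ND-42 and ND-B22. ND-B16.6, the counterpart of mammalian GRIM-19, was also the steadiest member at 0 h, with readings of 9.25, 9.28 and 9.44 at 5 h and of 9.37 to 9.49 at 0 h. The dimmest readings of complexes I, IV and V were those of ND-B8 and ND-18, of COX4L and COX7AL, and of ATPsynGL and ATPsynCF6L.

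**Figure D1:**
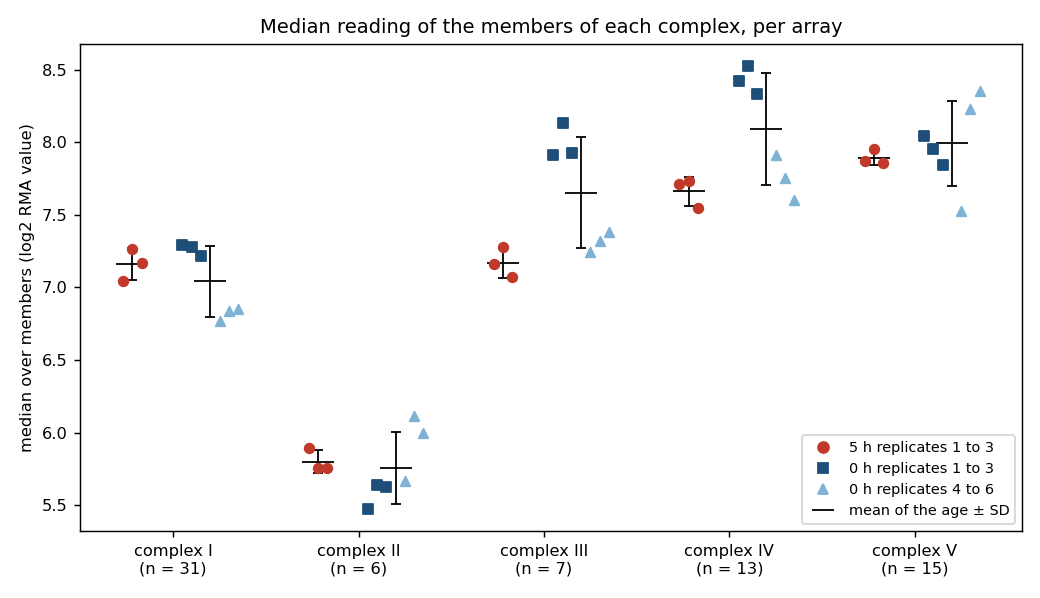
Median log2 reading over all members of each complex, paralogues included, in every array; the axis is the RMA value, points are arrays, and black bars show the mean of an age ± SD (3 arrays at 5 h, 6 at 0 h). The 5 h arrays lie close together in every complex, while 0 h replicates 1 to 3 lie above 0 h replicates 4 to 6 in complexes I, III and IV.

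At 5 h against 0 h, the genes of the respiratory chain showed little change that stood clear of the spread between arrays. In limma, 1 of the 72 members rose and 0 fell at an adjusted p of 0.05. The member that rose was ND-MNLL, a small accessory subunit of the membrane arm of complex I. The share was 1.39% of members higher, against 1.01% of all 13966 probe sets higher and 0.236% lower. Before adjustment, 6 members, 8.33%, had a p under 0.05 as higher, against 9.17% of all probe sets, and 9 members, 12.5%, as lower, against 5.52%. Where a reading is lower in a pooled capture, fewer cells of a type and less RNA per cell cannot be told apart.

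ND-MNLL, the counterpart of mammalian NDUFB1, read 8.43, 8.83 and 9.06 at 5 h, and at 0 h its lowest reading was 7.85, its median 8.0 and its highest 8.30. All 3 arrays at 5 h were above all 6 at 0 h. The difference was 0.74 on the log2 scale (SE 0.15, limma adjusted p = 0.041), or 1.67-fold. Its other probe set read 8.12, 7.99 and 7.91 at 5 h, and its lowest, median and highest readings at 0 h were 7.27, 7.84 and 8.12. Here the ages overlapped, and the difference was 0.22 (adjusted p = 0.55). With the mean of both probe sets, the difference of ND-MNLL was 0.48 with an adjusted p of 0.13. Leaving out 1 array ended the call in 6 of 9 cases: 0 h replicates 3, 4, 5 and 6, with adjusted p of 0.074, 0.052, 0.067 and 0.055, and 5 h replicates 2 and 3, with adjusted p of 0.20 and 0.28.

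By complex, the median difference between the ages lay just above 0 in complex I and below 0 in complexes II to V. Over all 72 members it was -0.08 on the log2 scale, with 29 above 0 and 43 below, beside -0.07 over all probe sets, with 5130 above 0 and 8836 below. The median was 0.05 in complex I (19 above 0, 12 below), -0.07 in complex II (2 above, 4 below), -0.24 in complex III (2 above, 5 below), -0.19 in complex IV (1 above, 12 below) and -0.11 in complex V (5 above, 10 below). Without paralogues these medians were 0.07, 0.10, -0.30, -0.22 and -0.03, and the median over all 55 genes was -0.01. The sign for complex I turned with the scaling: after a further quantile normalization its median was -0.09. The members then split into 19 above 0 and 53 below, with 0 called higher and 6 lower. Of all 13966 probe sets, 153 were then called higher and 101 lower.

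**Figure D2:**
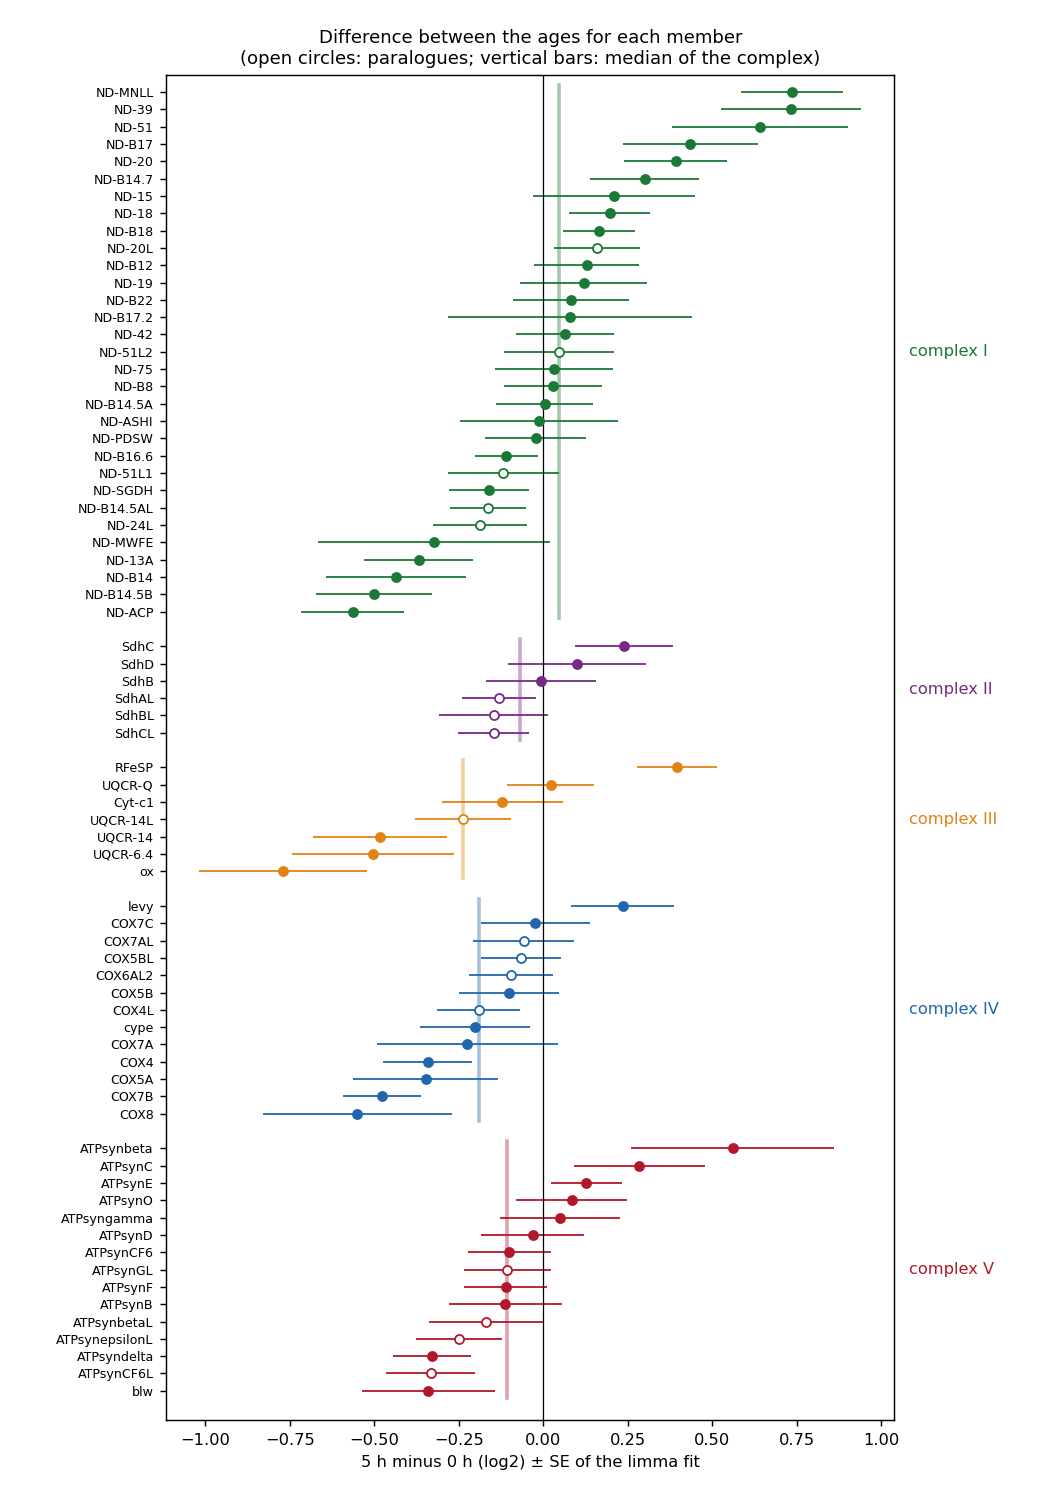
Difference between the ages for each of the 72 members, as 5 h minus 0 h on the log2 scale with the SE of the limma fit; filled circles are subunits, open circles paralogues, and the vertical bar of each complex is the median of its members. Complex I reaches from -0.56 to 0.74, and 12 of the 13 members of complex IV lie below 0.

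In complex I, the 3 measured subunits of the catalytic core had differences above 0 that did not pass the test, and the accessory subunits lay on both sides. ND-51, which binds NADH and the flavin that takes its electrons, read 8.09, 8.19 and 7.97 at 5 h, and 6.47, 7.60 and 7.94 as the lowest, median and highest at 0 h. The ages did not overlap, but the 0 h arrays spread widely, and the difference of 0.64 (SE 0.26) did not pass (adjusted p = 0.29). ND-20, which carries the iron-sulfur cluster next to the site of ubiquinone, differed by 0.39 (adjusted p = 0.26), and ND-75, the large iron-sulfur subunit, by 0.03 (adjusted p = 0.93). With the 3' bias of actin as a covariate, these differences turned to -0.29 for ND-51, -0.25 for ND-20 and -0.19 for ND-75. The bias did not overlap between the ages, so its part and that of age cannot be told apart. That of ND-75 was also below 0 after quantile normalization, at -0.17, and against 0 h replicates 4 to 6, at -0.08.

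Among the 23 accessory subunits, 14 were above 0 and 9 below, with a median difference of 0.06. ND-39, the counterpart of mammalian NDUFA9, read 7.78, 7.84 and 8.03 at 5 h, and 6.42, 7.28 and 7.55 as lowest, median and highest at 0 h. Its ages did not overlap, with a difference of 0.73 (SE 0.21, adjusted p = 0.12). At the other end stood ND-ACP, the mitochondrial acyl carrier protein, which also serves in fatty acid and iron-sulfur cluster synthesis. ND-ACP read 6.80, 7.23 and 7.21 at 5 h, and 7.34, 7.69 and 7.93 at 0 h, lower in every 5 h array, with a difference of -0.56 (SE 0.15, adjusted p = 0.10). ND-B14.5B differed by -0.50 (adjusted p = 0.20). The dim subunits ND-B8 and ND-18 differed by 0.03 and 0.20, and the bright subunits ND-B16.6, ND-42 and ND-B22 by -0.11, 0.07 and 0.08, with adjusted p of 0.45 or more for all 5. ND-B17, ND-B14.7, ND-15, ND-B18, ND-B12, ND-19, ND-B17.2 and ND-B14.5A lay between 0.00 and 0.44, and ND-ASHI, ND-PDSW, ND-SGDH, ND-MWFE, ND-13A and ND-B14 between -0.44 and -0.01, with adjusted p of 0.32 or more. The paralogues ND-20L, ND-51L1, ND-51L2, ND-B14.5AL and ND-24L lay between -0.19 and 0.16 (adjusted p of 0.49 or more).

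Complex II, which is also an enzyme of the citrate cycle, had no member past the test. The iron-sulfur subunit SdhB read 7.84, 7.76 and 8.03 at 5 h, and 7.41, 7.92 and 8.26 as lowest, median and highest at 0 h, a difference of -0.01 (adjusted p = 0.99). Of the membrane anchors, SdhC differed by 0.24 (adjusted p = 0.45) and SdhD by 0.10 (adjusted p = 0.81). The paralogues SdhAL, SdhBL and SdhCL differed by -0.13, -0.15 and -0.15, and SdhBL was the only 1 of them above background.

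Complex III held a member whose ages did not overlap, RFeSP, and the member with the lowest difference of all 72, ox. RFeSP, the Rieske iron-sulfur protein, read 6.65, 6.54 and 6.63 at 5 h, and 5.95, 6.22 and 6.49 as lowest, median and highest at 0 h. All 5 h arrays were above all 0 h arrays, with a difference of 0.40 (SE 0.12, adjusted p = 0.14). The small subunit ox read 8.25, 8.60 and 8.20 at 5 h, and 8.37, 9.21 and 9.65 at 0 h. The ages of ox overlapped through 0 h replicate 6, and the difference of -0.77 (SE 0.25) did not pass (adjusted p = 0.17). The other probe set of ox ranged from 5.57 to 8.52 at 0 h and differed by -0.45 (adjusted p = 0.68). UQCR-6.4, another small subunit, differed by -0.50 (adjusted p = 0.36), UQCR-14 by -0.48 (adjusted p = 0.29), the heme protein Cyt-c1 by -0.12 (adjusted p = 0.73), UQCR-Q by 0.02 (adjusted p = 0.94), and the dim paralogue UQCR-14L by -0.24 (adjusted p = 0.45).

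Complex IV had 1 member whose ages did not overlap. COX7B read 9.16, 9.31 and 9.23 at 5 h, and 9.53, 9.69 and 10 as lowest, median and highest at 0 h, lower in every 5 h array. The difference was -0.48 (SE 0.11) with an adjusted p of 0.068, and it passed as lower where the array with conflicting labels was counted as 5 h (-0.44, adjusted p = 0.042). COX8 had a larger difference, -0.55, but its 0 h readings ran from 7.37 to 8.57 and enclosed those at 5 h, 7.24, 7.73 and 7.52, except the lowest (adjusted p = 0.39). The largest difference above 0 was that of levy, the counterpart of mammalian COX6A, at 0.23 (adjusted p = 0.48). COX5B and cype differed by -0.10 and -0.20, with adjusted p of 0.73 and 0.55. COX4 differed by -0.34 (adjusted p = 0.26), COX5A by -0.35 (adjusted p = 0.46), COX7A by -0.22 (adjusted p = 0.67) and COX7C by -0.02 (adjusted p = 0.95). The paralogues COX4L, COX7AL and COX6AL2 were below background and, with COX5BL, lay between -0.19 and -0.06.

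In complex V, the subunits of the catalytic head lay on both sides of 0. ATPsynbeta, which holds the catalytic sites, read 7.42, 7.61 and 7.86 at 5 h, and 6.16, 7.20 and 7.72 as lowest, median and highest at 0 h, with a difference of 0.56 (SE 0.30, adjusted p = 0.40). Its partner in the head, the alpha subunit blw, read 7.89, 7.61 and 7.63 at 5 h, and 7.53, 8.03 and 8.47 at 0 h, a difference of -0.34 (SE 0.20, adjusted p = 0.44). In both genes the ages overlapped. The central rotor subunit ATPsyngamma differed by 0.05 (adjusted p = 0.89). ATPsyndelta, also of the central stalk, read 8.08, 8.22 and 8.14 at 5 h, and 8.23, 8.48 and 8.73 at 0 h. Its ages did not overlap, the nearest arrays reading 8.22 at 5 h and 8.23 at 0 h, and the difference was -0.33 (adjusted p = 0.21).

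The 7 subunits of the membrane part and the peripheral stalk had a median difference of -0.03. Among them ATPsynC gave opposite answers by probe set: 0.28 (adjusted p = 0.49) with the brighter and -0.35 (adjusted p = 0.18) with the other, which read 6.29, 6.41 and 6.57 at 5 h, and 6.63, 6.74 and 7.01 as lowest, median and highest at 0 h. The brighter probe set overlapped between the ages, and the other did not. ATPsynO, which joins the head to the peripheral stalk, differed by 0.08, and ATPsynB, ATPsynCF6 and ATPsynF by -0.11, -0.10 and -0.11, with adjusted p of 0.65 or more. ATPsynD and ATPsynE differed by -0.03 and 0.13, and the paralogues ATPsynGL and ATPsynCF6L by -0.11 and -0.33, with adjusted p of 0.27 or more for all 4. The remaining paralogues were ATPsynbetaL at -0.17 (adjusted p = 0.62) and ATPsynepsilonL at -0.25 (adjusted p = 0.39).

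**Figure D3:**
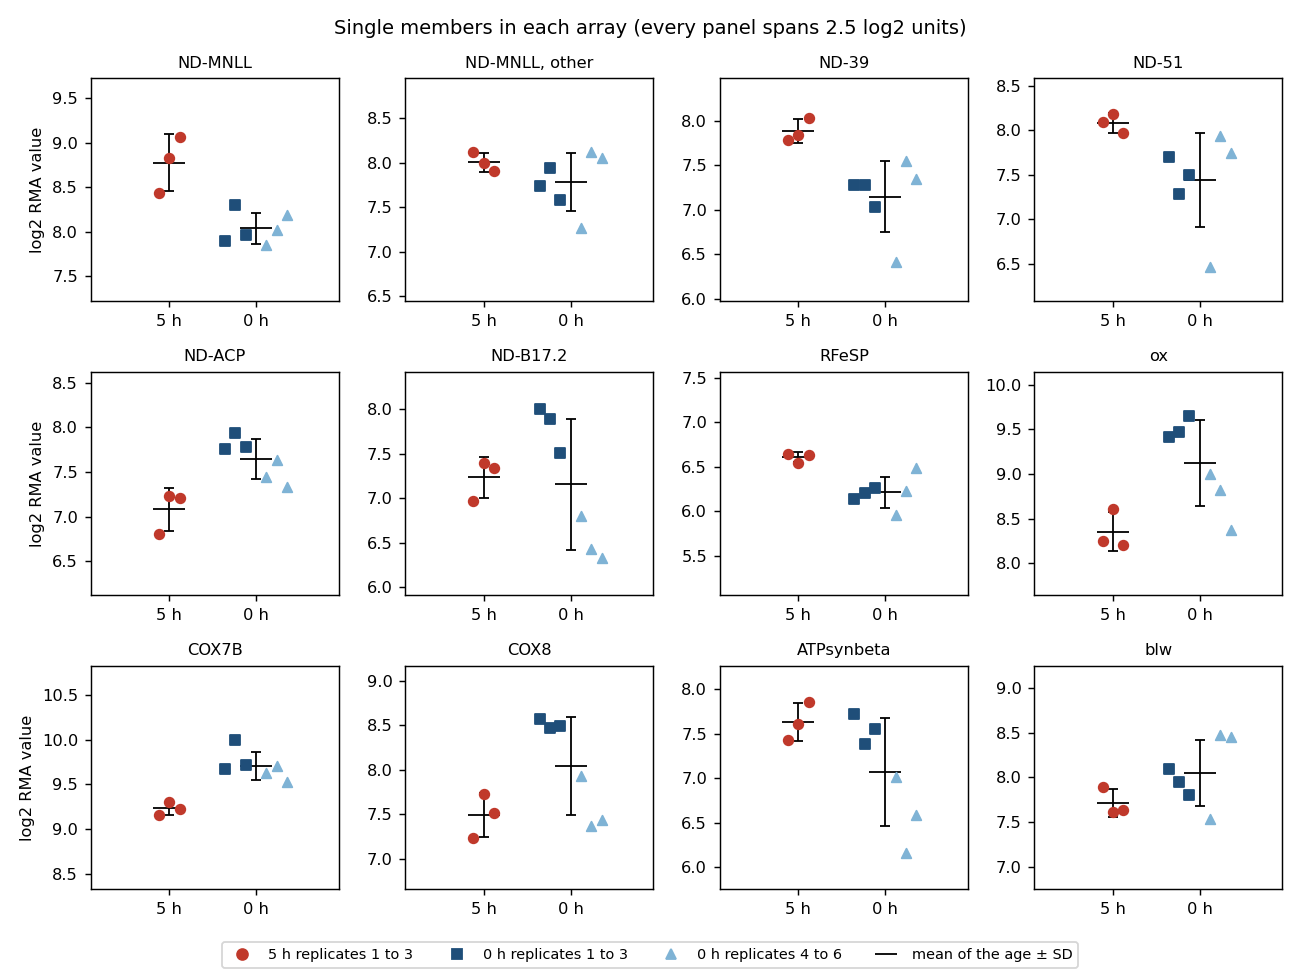
Log2 readings of single members in each array, with black bars for the mean of an age ± SD; the panel headed ND-MNLL, other shows the second probe set of that gene, and every panel spans 2.5 log2 units. ND-MNLL, ND-39, ND-51 and RFeSP are higher in all 5 h arrays, ND-ACP and COX7B are lower in all 5 h arrays, and the other panels overlap.

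Counting members whose ages did not overlap gave shares near those of the array as a whole. There were 4 members higher in every 5 h array (ND-39, ND-51, ND-MNLL and RFeSP), 5.56% of the 72, against 5.39% of all probe sets. Lower in every 5 h array were 3 members (ND-ACP, COX7B and ATPsyndelta), 4.17%, against 4.4% of all probe sets. The spread at 0 h limited what could be called: the median SD over members was 0.12 at 5 h and 0.27 at 0 h, against 0.11 and 0.21 over all probe sets. The members with a 0 h SD above 0.5 were ND-51, ND-B17.2, ND-MWFE, COX7A, COX8 and ATPsynbeta, 6 in all.

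The sets of 0 h arrays were therefore also used 1 at a time, each in its own limma fit of 3 arrays against 3. Both fits share the 5 h arrays, and the sets were recognised in the data and are not groups of the study. Each fit leaves the spread between the sets out of its error, so its adjusted p-values are too small and more probe sets pass by construction; the counts below describe each set alone. Against 0 h replicates 1 to 3, more members were lower than higher. There 14 members were lower, 19.4% of the 72, against 3.74% of all probe sets, and 5 were higher, 6.94%, against 4.37%. By complex, 5 of 31 members were lower in complex I, 0 of 6 in complex II, 3 of 7 in complex III, 5 of 13 in complex IV and 1 of 15 in complex V. Against 0 h replicates 4 to 6, 10 members were higher, 13.9%, against 12.5% of all probe sets, and 2 were lower, 2.78%, against 9.5%. Of the 10, 8 belonged to complex I and 2 to complex V.

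Against 0 h replicates 1 to 3, the 5 largest differences were below 0. They were -1.16 for ox, -1.02 for COX8, -0.93 for UQCR-6.4, -0.92 for ND-MWFE and -0.82 for UQCR-14, with adjusted p of 0.0031 or less. Set against 0 h replicates 4 to 6, the same genes differed by -0.38, -0.08, -0.08, 0.28 and -0.14, and none of the 5 passed. UQCR-6.4 read 7.72, 7.88 and 7.81 at 5 h, against 8.69, 8.82 and 8.70 in 0 h replicates 1 to 3 and 7.99, 7.91 and 7.74 in 0 h replicates 4 to 6. COX8 read 7.24, 7.73 and 7.52 at 5 h, against 8.57, 8.47 and 8.49 in replicates 1 to 3 and 7.93, 7.37 and 7.43 in replicates 4 to 6. In both genes the 5 h arrays were below all of replicates 1 to 3 and overlapped replicates 4 to 6. In complex IV, COX4, COX5A, COX7A and COX7B were also lower against replicates 1 to 3, by -0.50, -0.67, -0.67 and -0.56, and of these COX7B was lower against replicates 4 to 6 too (-0.39, adjusted p = 0.037). In complex I the others were ND-ACP, ND-B14, ND-B14.5B and ND-B17.2, and in complex V ATPsyndelta.

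Higher against 0 h replicates 1 to 3 were ND-39, ND-51, ND-MNLL, SdhC and RFeSP, by 0.69, 0.59, 0.72, 0.37 and 0.41. Higher against 0 h replicates 4 to 6 were ND-15, ND-19, ND-20, ND-39, ND-B14.7, ND-B17, ND-B17.2 and ND-MNLL of complex I and ATPsynbeta and ATPsynC of complex V. ATPsynbeta differed by 1.04 against replicates 4 to 6 (adjusted p = 0.007) and by 0.08 against replicates 1 to 3 (adjusted p = 0.82). ND-39 and ND-MNLL were higher against both sets, by 0.78 and 0.76 against replicates 4 to 6, with adjusted p of 0.049 and 0.013.

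ND-B17.2, chosen after its values were seen, passed in opposite directions in these fits, whose adjusted p-values are too small. It read 6.97, 7.39 and 7.34 at 5 h, against 8.0, 7.88 and 7.51 in 0 h replicates 1 to 3 and 6.79, 6.43 and 6.33 in 0 h replicates 4 to 6. The 5 h arrays lay between the sets without overlap. The difference was -0.56 against replicates 1 to 3 (adjusted p = 0.047), 0.72 against replicates 4 to 6 (adjusted p = 0.014) and 0.08 against all 6 (adjusted p = 0.92). Array-wide measures moved with these sets: the member median was 7.17 to 7.41 at 5 h, 7.51 to 7.70 in 0 h replicates 1 to 3 and 6.87 to 7.24 in 0 h replicates 4 to 6, beside the 95th percentiles given above, and their part in the calls was not tested. With the actin 3' bias as a covariate 0 members and 0 of all probe sets passed in limma, and 5 members had an unadjusted p under 0.05. The difference of ND-MNLL was 0.74 with an adjusted p of 1.0. Since the bias did not overlap between the ages, this fit cannot tell it apart from age.

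**Figure D4:**
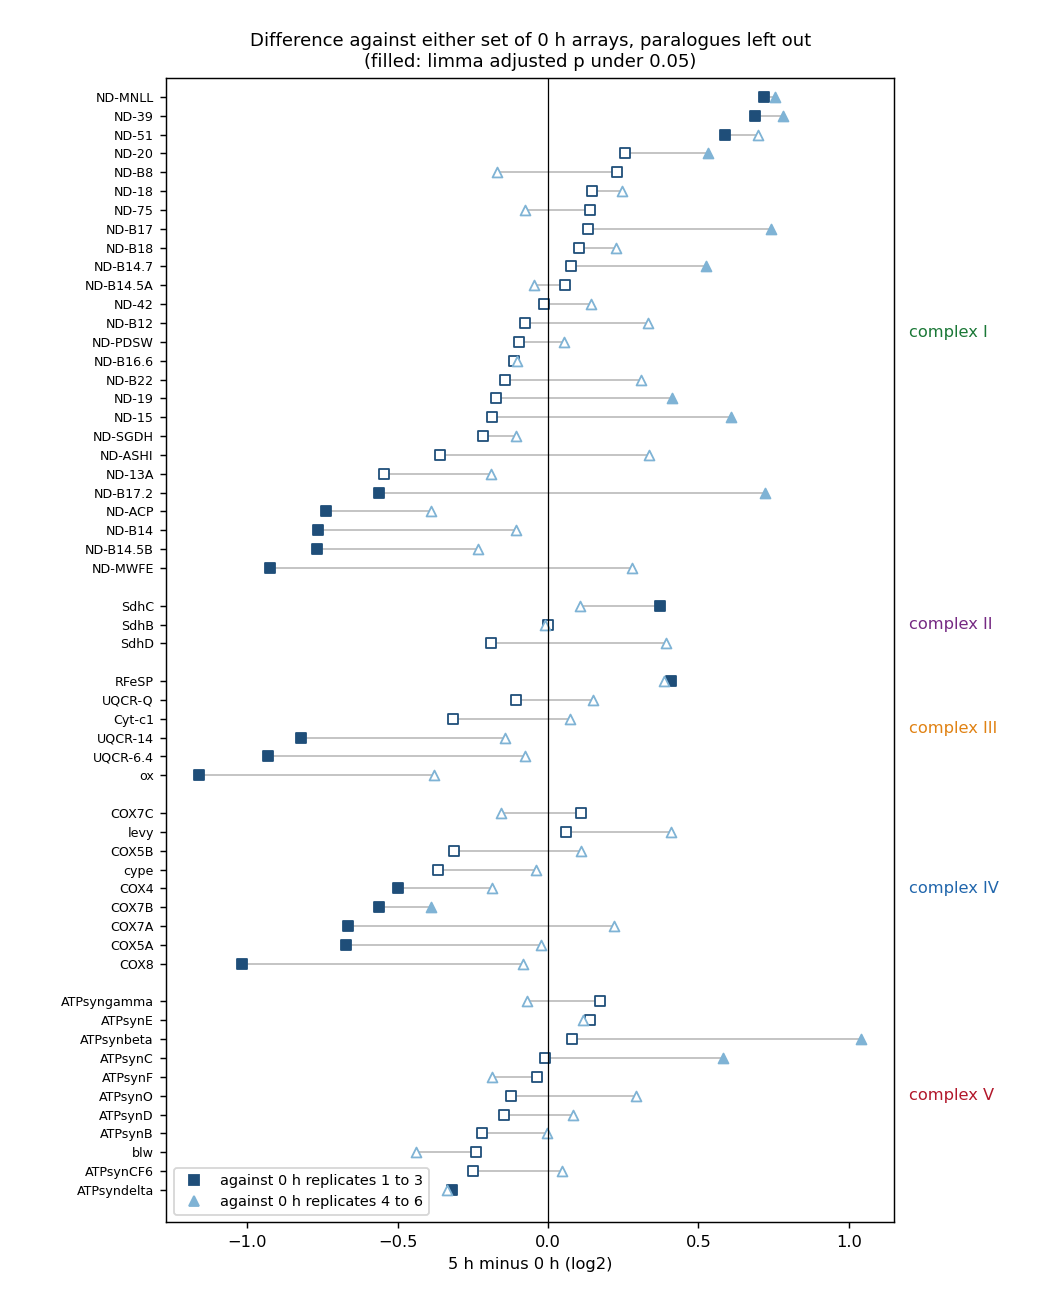
Difference of the 55 members that are not paralogues, as 5 h minus 0 h on the log2 scale, against 0 h replicates 1 to 3 (squares) and against 0 h replicates 4 to 6 (triangles); filled symbols passed an adjusted p of 0.05 in limma, and both comparisons use the same 3 arrays at 5 h. Each fit leaves the spread between the 0 h sets out of its error, so its adjusted p-values are too small. In complexes III and IV the filled symbols are mostly squares below 0, and in complex I triangles above 0 and squares on either side. ND-B17.2 is filled on both sides of 0.

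Genes that serve the complexes without being subunits were taken from lists. Of 10 measured assembly factors, Surf1, which helps to assemble complex IV, rose, and 0 fell. Of the 10, 7 were above 0 and 3 below, with a median of 0.33. Beside the calls in this list and in that of glycolysis, 1.01% of all probe sets were called higher and 0.236% lower. Surf1 read 6.72, 6.61 and 7.0 at 5 h, and 5.77, 6.08 and 6.21 as lowest, median and highest at 0 h, without overlap, a difference of 0.73 (SE 0.13, adjusted p = 0.024). The call of Surf1 ended with the conflicting array as 0 h (0.69, adjusted p = 0.068), without 0 h replicate 3 (0.052) and without any 1 of the 5 h arrays (0.083 to 0.20). Of 8 measured glycolytic genes, Pglym78, a phosphoglycerate mutase, fell and 0 rose, with a median of -0.01. Pglym78 averaged 9.73 ± 0.08 at 5 h and 10.39 ± 0.18 at 0 h (SD, n = 3 and 6), a difference of -0.66 (SE 0.12, adjusted p = 0.027). Its call ended with the conflicting array as 0 h (adjusted p = 0.18), with a trended and robust prior (0.096) and without any 1 of the 5 h arrays (0.12 to 0.16). With the conflicting array as 0 h, 0 of all probe sets passed in limma.

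The other lists held no gene past the test. Over all probe sets, 9.17% had an unadjusted p under 0.05 as higher and 5.52% as lower. Of the genes listed for pyruvate dehydrogenase, only its kinase Pdk was measured. Of 8 genes, made up of Pdk and genes of the citrate cycle, 4 had an unadjusted p under 0.05. These were 2 as higher, 25%, and 2 as lower, 25%. The largest differences were those of Scsalpha1, -0.59 (adjusted p = 0.26), and ScsbetaG, 0.49 (adjusted p = 0.13), both of succinyl-CoA synthetase. With the mean of its probe sets, ScsbetaG differed by 0.15. Of 9 carriers and import genes, 2 had an unadjusted p under 0.05, both as higher, 22.2%. They were colt, a mitochondrial carnitine carrier, at 0.77 (adjusted p = 0.088), and Tom20, a receptor for imported proteins, at 0.50 (adjusted p = 0.30). The mean of the probe sets of colt differed by 0.36. Of 9 genes for the upkeep and control of mitochondrial DNA, 1 had an unadjusted p under 0.05, as higher, 11.1%. There the largest differences were those of ewg, the counterpart of the mammalian regulator NRF-1, at 0.68 (adjusted p = 0.18), and mTTF, a terminator of mitochondrial transcription, at 0.56 (adjusted p = 0.44). The medians of these lists were -0.09, -0.01 and 0.12.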

How the data were processed

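Gene expression was measured on 10 single Affymetrix Drosophila Genome arrays, 1 per sample, of which 9 were compared. Per the submitters' processing notes, the authors used Affymetrix Expression Console and RMA to obtain 1 value per probe set; the versions, and which arrays were normalized together, are not given in the sources used here. These deposited log2 values were used as they stand. No counts underlie them, so precision rests on the number of arrays. All arrays were distinct, with an SD of 0.17 or more between any pair.

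Samples were grouped by age and replicate number in their descriptions. The array whose title gives 5 h and whose age label and description give 0 h entered no group. Of 14010 probe sets, 44 controls were left out, and no filter or further normalization was applied. Symbols came from the platform annotation (12443 probe sets with a single symbol, 327 with several, which named no gene); all 75 member probe sets matched RefSeq by gene identifier and 0 symbols changed. Two-sided tests between the ages used lmFit and eBayes of limma 3.58.1 under R 4.3.3, p-values were adjusted over 13966 probe sets by Benjamini-Hochberg, and the threshold was 0.05; the steps were tested on simulated data. Complexes were described by medians, with no test over members.

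Members, lists, alternatives and the split of the 0 h arrays were chosen with earlier results of these data known. Named are members past the threshold, the 3 brightest and 2 dimmest and the 2 largest differences each way above background per complex, all of complex II, catalytic subunits, genes whose probe sets differ by over 0.5, and, in the lists, genes past the threshold or the 2 largest differences. Other genes named (markers that did not pass, ATPsyndelta, ND-B17.2 and those listed with the 0 h sets, the background and the spread) were chosen after their values were seen. Alternatives were both groupings of the array with conflicting labels, quantile normalization, median centring, a filter on dim probe sets, a trended and robust prior, averaging the probe sets of a gene, a replicate block, 3' bias as a covariate, either 0 h set or any 1 array left out, and other thresholds; leaving out paralogues was added after seeing the data.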

Additional observations from a re-analysis of the deposited data

Results flagged for a closer look

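In 2 of the 56 groups of 6 arrays at 0 h that were checked, 1 array lay apart from the other 5; chance gives such a gap in about 1 group in 20. COX7AL, a paralogue of complex IV that lies below background, read 3.27 on the log2 scale in 0 h replicate 5, while the nearest of the other 0 h arrays read 2.68. The gap was 0.876 of the whole range, above Dixon's critical value. The carnitine carrier gene colt read 5.65 in 0 h replicate 4, while the nearest of the other 0 h arrays read 6.45, a gap of 0.753 of the range. Neither array was left out of the values above.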

How the results depend on the processing

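The count of members that rose, 1 as reported, was 0 with the array of conflicting labels counted as 0 h, 0 after quantile normalization, 0 with a trended and robust prior, 0 when probe sets of a gene were averaged, 0 with the 3' bias as a covariate and 0 at a threshold of 0.01. It was 5 without 0 h replicates 4 to 6, 10 without 0 h replicates 1 to 3, and 0 to 1 with each array left out in turn. The count that fell, 0 as reported, was 1 with that array counted as 5 h, 6 after quantile normalization, 14 without 0 h replicates 4 to 6, 2 without 0 h replicates 1 to 3 and 1 at a threshold of 0.1. The 6 after quantile normalization were ND-ACP, ND-B14.5B, ox, UQCR-14, COX4 and COX7B, at -0.75, -0.70, -0.98, -0.68, -0.54 and -0.63. Of all 13966 probe sets, 101 were lower after quantile normalization and 57 with the array of conflicting labels as 5 h. A replicate block over replicates 1 to 3 gave 3 higher and 13 lower, against 5 and 14 from the same 6 arrays without it. Over all probe sets the counts were 393 and 350 with the block, and 610 and 522 without it. The labels do not say whether equal replicate numbers mark pairs. The numbers used are those of the descriptions, and the titles number the same 5 h arrays otherwise, so pairs by title would differ. Same-numbered arrays correlated at -0.333, -0.133 and -0.233 in their deviations from the mean of their 3 arrays. Deviations within so few arrays are tied to each other, so these values cannot show whether same-numbered arrays shared a batch. The median difference of complex I was -0.24 with the 3' bias as a covariate, a fit in which bias and age cannot be told apart. This median also lay below 0 without 0 h replicate 4 (-0.01), without 0 h replicates 4 to 6 with or without the block (-0.01), and after quantile normalization (-0.09). That of complex II was 0.05 with the filter on dim probe sets. No difference that passed over all 9 arrays reversed, but ND-B17.2, which did not, passed as lower without 0 h replicates 4 to 6 and as higher without 0 h replicates 1 to 3. The causes of these shifts were not tested. For members below background, a difference cannot be read as one of the gene.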

Other observations

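The array whose title gives 5 h and whose age label and description give 0 h had a median over the 72 members of 7.27 on the log2 scale. Its medians by complex were 7.05 for complex I, 5.45 for complex II, 7.54 for complex III, 7.81 for complex IV and 7.95 for complex V. Single members on it read 8.37 for ND-MNLL, 9.38 for COX7B, 8.62 for ox, 7.21 for ND-B17.2 and 7.57 for ATPsynbeta. Its actin 3' bias was 8.44, beside 8.47 to 8.63 at 5 h and 7.45 to 8.10 at 0 h. The glial marker nrv2 read 5.36 on it, beside means of 5.50 at 5 h and 4.22 at 0 h. The neuron marker elav read 4.02, beside means of 5.06 at 5 h and 4.20 at 0 h. The age of this array was not tested.

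Markers of other cell types were also read. Of 6 muscle markers, bt rose by 1.06 (log2, limma adjusted p = 0.022), Mlc1 and Tm2 lay below background, and Mlc2, sls, Tm2 and up differed by -0.25, -0.26, -0.09 and -0.13. The call of bt ended with the mean of its 2 probe sets (0.53, adjusted p = 0.11), with the conflicting array as 0 h (0.088) and without 5 h replicate 2 or 3 (0.11 and 0.15). The 6 muscle markers had a summed linear level of 113 to 129 at 5 h and 99 to 133 at 0 h. For 4 fat body markers the sum was 821 to 1595 at 5 h and 480 to 2573 at 0 h. Of 5 hemocyte markers, crq and Pxn differed by 1.39 (adjusted p = 0.063) and 0.40 (adjusted p = 0.35). Hml, NimC1 and srp lay below background and differed by -0.07, -0.20 and -0.26. The summed linear level of the 5 was 138 to 184 at 5 h and 92 to 130 at 0 h, without overlap. For 7 salivary gland markers, of which Eig71Eg, Sgs3, Sgs4 and Sgs5 lay below background, it was 93 to 105 at 5 h and 105 to 1296 at 0 h; the highest 0 h value was that of replicate 2 alone, and without it the highest was 123. For 6 testis markers, of which can, dj, mia and sa lay below background, it was 64 to 68 at 5 h and 62 to 85 at 0 h. Their part in the differences of the subunits was not tested.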
